A study of Homo sapiens with 12 samples.

Results

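A set of 10 genes that supply acetyl-CoA from acetate or citrate, or that place acetyl groups on histones, was followed across the 12 RNA-seq libraries of MiaPaca2, an established human pancreatic ductal adenocarcinoma cell line. The 10 genes were taken from a written list, matched from symbol to Ensembl identifier through GENCODE v44, out of 63677 identifiers in the count tables, and 9 of them were among the 17123 genes with enough reads to test. The cells were treated for 24 h in 4 groups of 3 libraries. Con received DMSO and CPT received the Vitamin D analogue calcipotriol at 1 µM. Epigenetic priming used 2 mM GTA (glyceryl triacetate, an acetate precursor) together with 1 µM 5-Aza (5-Aza-2′-deoxycytidine, an inhibitor of DNA methyltransferases), without calcipotriol (GTA+5-Aza) or with 1 µM of it (CPT+GTA+5-Aza). GTA and 5-Aza were given only together, so a change with priming cannot be assigned to either agent, and all libraries come from 1 wild-type cell line.

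Acetyl-CoA is the donor of every acetyl group on histones. Outside the mitochondria it is made mainly by ACLY, which cleaves citrate exported from mitochondria by the carrier SLC25A1, and by ACSS2, which ligates free acetate to coenzyme A in the cytosol and nucleus. ACSS1 and ACSS3 are mitochondrial short-chain acyl-CoA synthetases, ACSS1 acting on acetate and ACSS3 mainly on propionate, and SLC16A1 (MCT1) is a proton-coupled monocarboxylate transporter of the plasma membrane that carries lactate, pyruvate and acetate. EP300 (p300) and CREBBP (CBP) are paired coactivators that acetylate histone H3 at lysine 27, and KAT2A (GCN5) and KAT2B (PCAF) are the alternative catalytic subunits of the SAGA and ATAC coactivator complexes.

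Priming raised the mRNA of both acetate-activating enzymes that the cells expressed, ACSS1 and ACSS2, and that of the citrate carrier SLC25A1, and it slightly lowered ACLY and CREBBP. The other tested genes, SLC16A1, EP300, KAT2A and KAT2B, did not pass the test for priming, and ACSS3 had no reads. Averaged over both states of calcipotriol, 3 members were higher and 2 lower with priming, so 5 of the 9 tested were called, against a background of 30.9% of all tested genes. By direction, the background was 16.8% higher and 14% lower. The median log2 fold change was -0.04 over the 9 members and 0.01 over all genes. Calcipotriol changed none of them at an adjusted p under 0.05 in either state. Levels are given as CPM, read counts scaled to the depth of each library with edgeR's TMM factors, and the adjusted p comes from edgeR's quasi-likelihood fit of all 12 libraries, corrected by Benjamini-Hochberg over the 17123 genes. Total counts per library ran from 16162490 to 21224665. These are levels of RNA in bulk cultures, in which fewer cells with a transcript and less of it per cell cannot be told apart.

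The promoters of the genes that rose are shown because 5-Aza inhibits DNA methyltransferases, which act at CG dinucleotides. DNA methylation itself was not measured in these files, and a count per gene does not say which start site was used. The sequences are RefSeq's on GRCh38.p14, from 250 bases before to 50 after a start site, read 5′ to 3′ along the gene, with every CG in capitals.
ACSS1 promoter, chr20:25058090-25058389, minus strand: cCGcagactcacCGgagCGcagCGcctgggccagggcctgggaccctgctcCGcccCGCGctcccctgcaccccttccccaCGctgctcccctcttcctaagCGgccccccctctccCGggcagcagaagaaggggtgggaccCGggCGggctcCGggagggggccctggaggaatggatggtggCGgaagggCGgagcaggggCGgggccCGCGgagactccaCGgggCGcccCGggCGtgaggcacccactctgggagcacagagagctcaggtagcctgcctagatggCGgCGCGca
ACSS2 promoter, first start, chr20:34874739-34875038, plus strand: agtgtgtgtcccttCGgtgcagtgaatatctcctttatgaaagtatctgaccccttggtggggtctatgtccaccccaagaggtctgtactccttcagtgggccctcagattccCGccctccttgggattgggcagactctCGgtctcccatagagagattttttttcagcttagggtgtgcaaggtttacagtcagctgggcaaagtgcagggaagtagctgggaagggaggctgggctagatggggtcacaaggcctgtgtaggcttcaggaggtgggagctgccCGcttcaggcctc
ACSS2 promoter, second start, chr20:34876362-34876661, plus strand: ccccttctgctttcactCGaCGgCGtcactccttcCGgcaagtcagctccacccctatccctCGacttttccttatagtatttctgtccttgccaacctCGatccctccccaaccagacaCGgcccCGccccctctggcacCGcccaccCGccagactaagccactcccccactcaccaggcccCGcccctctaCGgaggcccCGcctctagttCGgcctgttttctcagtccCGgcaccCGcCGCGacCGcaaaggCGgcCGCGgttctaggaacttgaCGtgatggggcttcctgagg
SLC25A1 promoter, chr22:19178687-19178986, minus strand: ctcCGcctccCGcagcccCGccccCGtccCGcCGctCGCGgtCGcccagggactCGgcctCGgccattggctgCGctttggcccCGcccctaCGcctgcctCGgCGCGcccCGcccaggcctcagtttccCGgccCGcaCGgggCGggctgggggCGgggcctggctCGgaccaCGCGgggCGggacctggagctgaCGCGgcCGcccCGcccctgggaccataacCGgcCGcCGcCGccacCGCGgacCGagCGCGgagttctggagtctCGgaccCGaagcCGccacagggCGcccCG

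The 3 genes had unlike promoters. The ACSS1 window held 25 CG dinucleotides (a second ACSS1 window, not shown, held 11) and the SLC25A1 window 45, more than in 96.5% of the 35116 promoters of the table, whose median was 14. The first ACSS2 window held 4 and the second 23. Among genes that did not rise, EP300 and KAT2B had 40 each and KAT2A had 18. The ACLY windows had 30 and 31, and the CREBBP windows 36 and 50. The ranges of the members that rose and of the others overlapped. Whether CG content bears on the changes was not tested. The core of the sterol regulatory element, TCACNCCAC on either strand, was in none of the members' windows and in 1.13% of all promoters. With so rare a match its absence from the windows of 8 members says little, and other forms of the element were not searched. CCAAT on either strand was in the first ACSS2 window, in the SLC25A1 window and in both ACLY windows, and in 34.6% of all promoters. The table matched 8 of the 10 members, without ACSS3 and SLC16A1.

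ACSS1 (ENSG00000154930, chromosome 20 from 25006230 to 25058980 on GRCh38) showed the largest fold change of the members on average, a rise of 49.3% over both states of calcipotriol. It was at 12.5, 13.2 and 16.5 CPM in Con, 11.1, 13.6 and 16.1 CPM in CPT, 21.1, 21.5 and 25.9 CPM in GTA+5-Aza, and 19.2, 17.4 and 19.2 CPM in CPT+GTA+5-Aza. Every primed library was above every unprimed one. For this and the other separations of libraries given below, the share of all tested genes that show them was not counted. Against Con the log2 fold change was 0.70 (standard error 0.14, adjusted p = 0.000951), and against CPT it was 0.46 (standard error 0.14, adjusted p = 0.0288). The increase with CPT present was no longer called without CPT replicate 1 (adjusted p = 0.186), CPT+GTA+5-Aza replicate 1 (adjusted p = 0.0903) or CPT+GTA+5-Aza replicate 3 (adjusted p = 0.0889). In primed cells ACSS1 was lower with calcipotriol by a log2 value of -0.29 (95% interval -0.58 to -0.01). Its unadjusted P was 0.0462 in edgeR, with an adjusted p of 1, and the unadjusted P was 0.222 when GTA+5-Aza replicate 3 was left out. The interaction, which tests whether priming acted differently with and without calcipotriol, had an unadjusted P of 0.238 for this gene.

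ACSS2 (ENSG00000131069, chromosome 20 from 34872146 to 34927962), the nuclear and cytosolic counterpart, was raised by 42.1% on average. Its levels were 27.8, 22.3 and 21.8 CPM in Con, 18.8, 25.7 and 26 CPM in CPT, 35.7, 31.3 and 32.7 CPM in GTA+5-Aza, and 32.1, 35.9 and 34.5 CPM in CPT+GTA+5-Aza. Again the primed and unprimed libraries did not overlap. The log2 fold change of priming was 0.47 (95% interval 0.22 to 0.73) without calcipotriol and 0.54 (0.29 to 0.79) with it, at an adjusted p of 0.00775 and 0.00285. Without Con replicate 3 the first had an adjusted p of 0.0595, and without GTA+5-Aza replicate 1 it was 0.0513. GGT7 overlaps ACSS2 by 711 bases on the other strand, and as no strand setting was stated for the counting, reads there cannot be told apart.

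ACSS3 (ENSG00000111058, chromosome 12 from 80936414 to 81261210) had 0 reads in all 12 libraries. A count of 0 allows up to 3 reads, which is 0.143 to 0.184 CPM depending on the library and covers counting error only. The acetate-activating enzymes in these cells were therefore read from ACSS1 and ACSS2 alone.

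**Figure D1:**
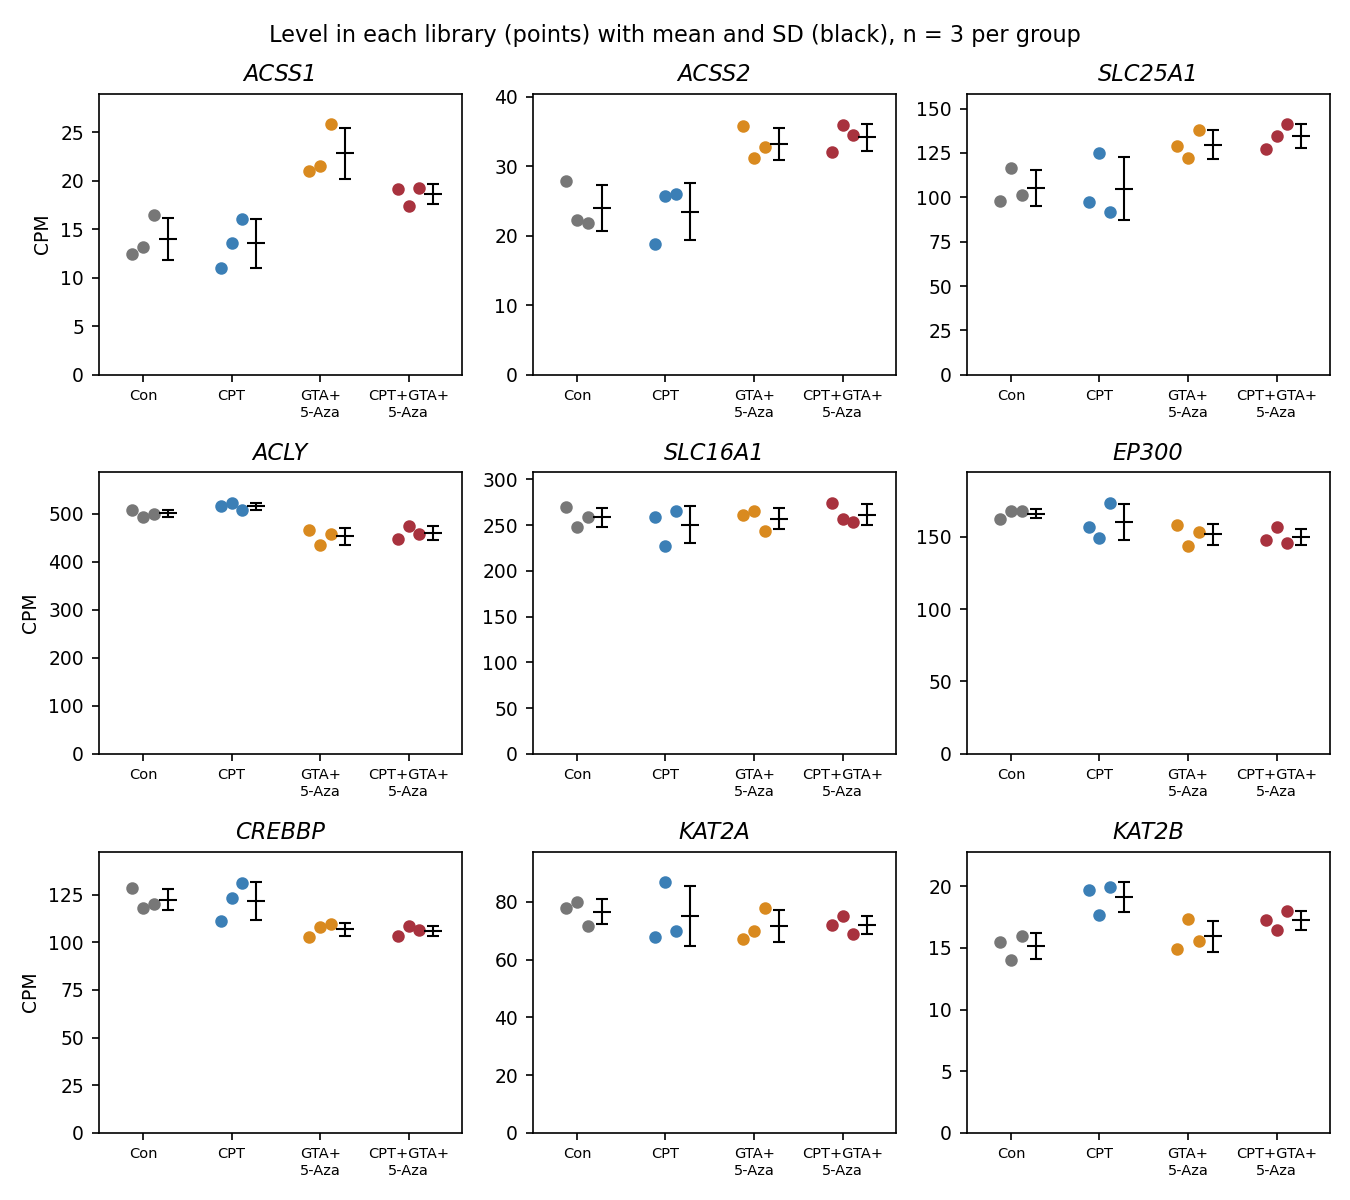
Level of the 9 detected members in CPM (linear axes from 0) in the 4 groups, 1 point per library, with the mean and SD of the 3 libraries in black. ACSS1, ACSS2, ACLY and CREBBP show no overlap between the 6 unprimed and the 6 primed libraries, and for SLC25A1 only CPT replicate 2, at 125 CPM, reaches into the primed range. The share of all tested genes without such overlap was not counted.

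On the citrate route, the carrier and the lyase moved in opposite directions. SLC25A1 (ENSG00000100075, chromosome 22 from 19175581 to 19178739), which exchanges mitochondrial citrate for malate, was at 98.1, 117 and 101 CPM in Con and 129, 122 and 138 CPM in GTA+5-Aza. With calcipotriol it was at 97.4, 125 and 91.8 CPM in CPT and 127, 135 and 141 CPM in CPT+GTA+5-Aza. Within each state of calcipotriol the groups did not overlap, and the average rise was 25.6%. The log2 fold change of priming was 0.30 (standard error 0.09, adjusted p = 0.0214) without calcipotriol and 0.36 (standard error 0.09, adjusted p = 0.00631) with it. SLC25A1 has the highest GC content of the members, 65.6% of its longest transcript. When the trend of each library with GC content was removed, the log2 fold change averaged over calcipotriol fell from 0.33 to 0.16 (adjusted p = 0.0022), and that without calcipotriol was 0.12 and not called (adjusted p = 0.15). It was also not called without Con replicate 1, Con replicate 3, GTA+5-Aza replicate 1 or GTA+5-Aza replicate 3 (adjusted p = 0.124, 0.101, 0.0585 and 0.112), nor, with calcipotriol, without CPT replicate 1 (adjusted p = 0.0529).

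ACLY (ENSG00000131473, chromosome 17 from 41866917 to 41930542) was the most abundant member per length. It was at 508, 494 and 501 CPM in Con and 467, 434 and 458 CPM in GTA+5-Aza. In CPT it was at 517, 523 and 508 CPM, and in CPT+GTA+5-Aza at 448, 476 and 458 CPM. The decrease was small but every primed library was below every unprimed one. The log2 fold change was -0.14 without calcipotriol (adjusted p = 0.0414) and -0.16 with it (adjusted p = 0.021), and -0.15 averaged over both (95% interval -0.23 to -0.08, adjusted p = 0.00114), which is a fall of 10.2%. The decrease without calcipotriol lay at the threshold, as its adjusted p was 0.056 to 0.163 when any 1 library outside the CPT group was left out, and 0.158 with scaling by library size alone. With calcipotriol it was 0.0568 without CPT replicate 1, 0.109 without CPT+GTA+5-Aza replicate 1, 0.0784 without CPT+GTA+5-Aza replicate 3, and 0.086 with scaling by library size alone.

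Levels of different genes were compared per kilobase of exon (CPM per kb, with exon lengths from GENCODE v44, which may differ from the annotation the reads were counted on). In Con the order was ACLY at 96.2 ± 1.39 (SD, n = 3), SLC25A1 at 52.7 ± 4.99, SLC16A1 at 40.7 ± 1.68, KAT2A at 20.3 ± 1.14, EP300 at 14.2 ± 0.258, CREBBP at 7.9 ± 0.352, ACSS2 at 4.57 ± 0.637, KAT2B at 2.91 ± 0.199 and ACSS1 at 1.61 ± 0.247 CPM per kb. Within Con, no library of one gene reached the range of the next in this order. ACLY stood at the 97.7th percentile of the tested genes in Con, ACSS2 at the 52nd and ACSS1 at the 31.6th. Within a library, the ratio of ACLY to ACSS2 per kb was 18.4, 22.3 and 23.1 in Con and 27.8, 20.5 and 19.7 in CPT. It was 13.2, 14 and 14.1 in GTA+5-Aza, and 14.1, 13.3 and 13.4 in CPT+GTA+5-Aza. The ratio was thus lower in all 6 primed libraries, and their values lay closer together. The ratio of ACLY to SLC25A1 likewise ran from 1.6 to 2.13 in unprimed and from 1.24 to 1.39 in primed libraries. These ratios describe the members' own changes and were not tested separately.

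**Figure D2:**
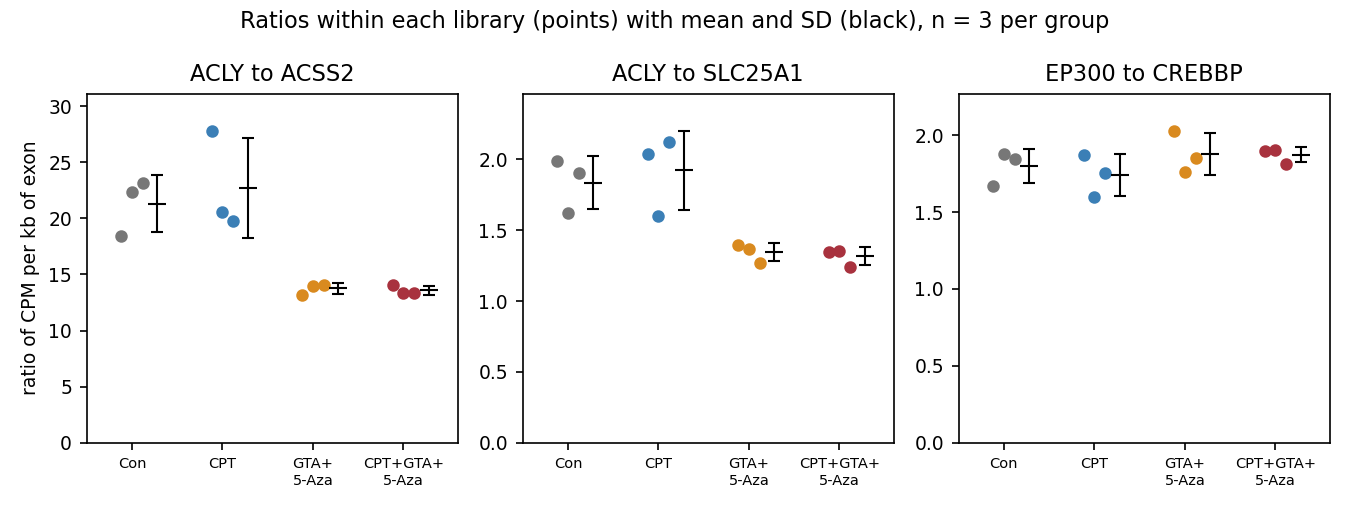
Ratios of levels per kb of exon within each library, with the mean and SD of the 3 libraries of a group in black and axes from 0. The ratio of ACLY to ACSS2 lies between 18.4 and 27.8 in the unprimed and between 13.2 and 14.1 in the primed libraries, whereas the ratio of EP300 to CREBBP spans 1.6 to 1.88 in the unprimed and 1.76 to 2.03 in the primed libraries.

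SLC16A1 (ENSG00000155380, chromosome 1 from 112911847 to 112957593), the transporter of the list, ranged from 227 to 269 CPM in unprimed and from 244 to 275 CPM in primed libraries. These ranges overlapped. The log2 fold change of priming was -0.01 without calcipotriol and 0.06 with it (adjusted p = 0.948 and 0.552), and the 95% interval of the averaged value, -0.06 to 0.12, leaves out changes as large as those of ACSS1 and ACSS2. With the GC trend removed the averaged value was 0.10 and called (adjusted p = 0.0183). The GC content of its longest transcript is 43.5%. The antisense gene SLC16A1-AS1 overlaps the gene by 1179 bases and had at most 121 reads in a library.

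Among the histone acetyltransferases, CREBBP (ENSG00000005339, chromosome 16 from 3725054 to 3880713) was the member that fell. It was at 128, 118 and 120 CPM in Con, 111, 123 and 131 CPM in CPT, 103, 108 and 109 CPM in GTA+5-Aza, and 103, 109 and 106 CPM in CPT+GTA+5-Aza. The primed libraries all lay below the unprimed ones, by a narrow margin from CPT replicate 1. The log2 fold change was -0.19 without calcipotriol (adjusted p = 0.0507, not called) and -0.20 with it (adjusted p = 0.0462), and averaged over both it was -0.20 (95% interval -0.30 to -0.10, adjusted p = 0.00264), a fall of 12.8%. With calcipotriol the call was lost, at an adjusted p of 0.0518 to 0.186, without any 1 library other than Con replicate 1 and CPT replicate 1, and at 0.116 with scaling by library size alone. The value without calcipotriol was called without CPT replicate 1, 2 or 3 (adjusted p = 0.041, 0.027 and 0.0289), and in DESeq2 (adjusted p = 0.0263).

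Its partner EP300 (ENSG00000100393, chromosome 22 from 41092592 to 41180077) was at 162, 167 and 168 CPM in Con and 158, 144 and 153 CPM in GTA+5-Aza, with 157, 149 and 174 CPM in CPT and 147, 156 and 146 CPM in CPT+GTA+5-Aza. The groups with calcipotriol overlapped. The averaged log2 fold change of -0.11 had a 95% interval of -0.21 to -0.02 and missed the threshold (unadjusted P = 0.0218, adjusted p = 0.0655), although it passed in DESeq2 (adjusted p = 0.0398) and without CPT replicate 2 (adjusted p = 0.0114). The interval of EP300 contains the value of CREBBP, and the difference between these paralogs was not tested. An antisense gene, ENSG00000232754, overlaps EP300 and had at most 73 reads in a library. Per kb, EP300 exceeded CREBBP 1.6 to 2.03 times in the 12 libraries.

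KAT2A (ENSG00000108773, chromosome 17 from 42113111 to 42121367) ranged from 67.9 to 87 CPM in unprimed and from 67.2 to 77.9 CPM in primed libraries, with an averaged log2 fold change of -0.08 (95% interval -0.21 to 0.05, adjusted p = 0.377). With the GC trend removed it was -0.20 and called (adjusted p = 0.00209). The GC content of its longest transcript is 59.9%. KAT2B (ENSG00000114166, chromosome 3 from 20040446 to 20154404) was the less abundant of these paralogs. It showed no priming effect past the test, with an averaged log2 fold change of -0.04 (95% interval -0.22 to 0.14, adjusted p = 0.781). Per kb, KAT2A exceeded KAT2B 4.75 to 7.87 times.

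**Figure D3:**
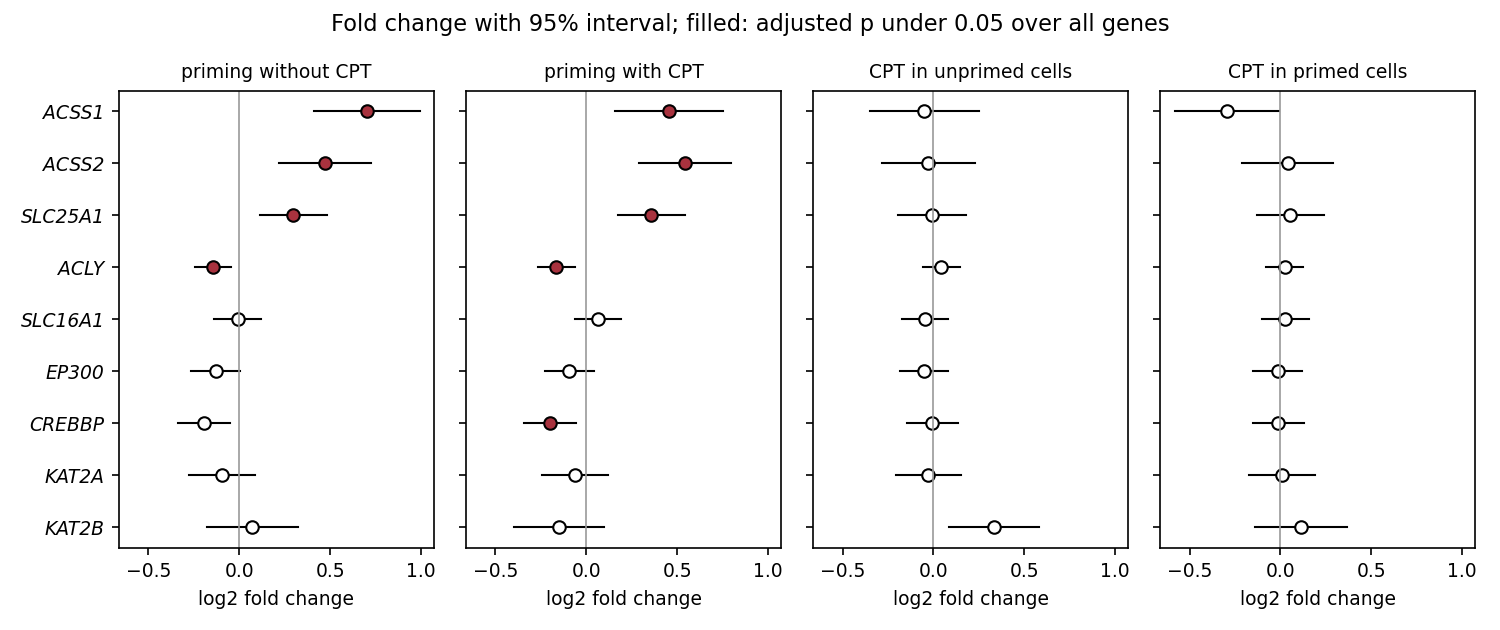
Log2 fold change of the 9 tested members in 4 comparisons, with 95% intervals from edgeR. Filled points have an adjusted p under 0.05. Priming gives filled points to the right for ACSS1, ACSS2 and SLC25A1 and to the left for ACLY in both states of calcipotriol, and to the left for CREBBP only with calcipotriol, at a value nearly equal to that without it. The panels for calcipotriol have no filled point.

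Compared between the states of calcipotriol, the priming comparisons share no library. Without calcipotriol 4 of the 9 members were called, 3 higher and 1 lower, where 17.5% of all genes were called, 9.95% higher and 7.53% lower. With calcipotriol 5 were called, 3 higher and 2 lower, where 17% of all genes were called, 9.57% higher and 7.39% lower. The thresholds of the study, more than 1.5-fold in either direction with P under 0.05 before adjustment, were met by ACSS1 without calcipotriol and by no member with it. The background of that rule was 8.44% and 8.67%. The changes of the members were thus mostly below 1.5-fold.

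The effect of calcipotriol itself was tested in unprimed and in primed cells. At an adjusted p under 0.05, 0 members were called in either comparison or in the interaction, in edgeR and in DESeq2. The background in the reported edgeR fit was 0% of all genes in each of them. Before adjustment, 733, 464 and 451 genes had P under 0.05 in that fit. DESeq2 called 4, 1 and 0 genes. The likelihood ratio test in edgeR called 4, 3 and 3, and edgeR with no filter on low counts called 10, 4 and 11 of 32000. By the thresholds of the study 0 members were called, against a background of 1.83% in unprimed and 1% in primed cells. An unadjusted P under 0.05 was reached by 1 member in each state and by 0 in the interaction. In primed cells this was ACSS1, given above. In unprimed cells it was KAT2B, at 15.5, 14 and 16 CPM in Con and 19.7, 17.7 and 20 CPM in CPT. These groups did not overlap, and the log2 fold change was 0.33 (95% interval 0.09 to 0.58, unadjusted P = 0.0103, adjusted p = 1). How many of all tested genes separate Con from CPT in this way was not counted. In primed cells KAT2B was at 14.9, 17.4 and 15.5 CPM without and 17.3, 16.5 and 18 CPM with calcipotriol, a log2 fold change of 0.11 whose interval, -0.14 to 0.36, includes the value in unprimed cells. The interaction for KAT2B had an unadjusted P of 0.209.

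Lists of further genes around these members were examined, and the averaged priming comparison is given for them. Each count can be read against the shares of all tested genes, 16.8% higher and 14% lower. Of 31 tested genes of acetyl-CoA supply and use, 5 were higher and 7 lower, and the list's median was -0.02 on the log2 scale. The pyruvate dehydrogenase complex, which makes acetyl-CoA from pyruvate inside mitochondria, had 3 of its 5 tested genes lower, PDHA1 (-0.11), PDHX (-0.14) and DLD (-0.25), while PDHB (0.10) and DLAT (0.02) did not pass the test. Its regulators were split. The kinases PDK1 (0.32) and PDK3 (0.83), which switch the complex off, and the phosphatase PDP1 (0.68), which switches it on, were higher. The other phosphatase, PDP2 (-0.36), was lower. PDK3 was low, at 13 to 84 reads per library. Its primed and unprimed libraries overlapped, as did those of PDK1 and PDP2. In neither state of calcipotriol alone did PDK3 pass both an adjusted p under 0.05 and a 1.5-fold change. Users of cytosolic acetyl-CoA included lower FASN (-0.29), the fatty acid synthase, and lower HMGCS1 (-0.29), an early enzyme of cholesterol synthesis, and higher ACACB (0.37), the acetyl-CoA carboxylase found at mitochondria. Citrate synthase, CS, was lower (-0.22) and the lactate exporter SLC16A3 higher (0.38). All values in parentheses are log2 fold changes averaged over calcipotriol, with an adjusted p under 0.05 except for PDHB and DLAT.

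Both ACSS2 and ACLY are known targets of the SREBP factors, which drive sterol and fatty acid synthesis. Of 14 tested genes of that axis 1 was higher and 4 were lower, beside 16.8% and 14% of all genes. The higher one was SREBF2 (0.14, adjusted p = 0.0453), and 0 were higher with DESeq2's size factors in edgeR, with no filter on low counts, with the GC trend removed, or without any 1 library other than CPT replicates 2 and 3 and GTA+5-Aza replicate 2. INSIG1 (-0.35), LSS (-0.25) and SCD (-0.13) were among those lower, so ACSS2 moved in the opposite direction to these genes and ACLY in the same direction. Of 11 genes of coenzyme A synthesis and turnover, 3 were higher and 0 lower in edgeR, with 4 at an unadjusted P under 0.05. Without CPT+GTA+5-Aza replicate 3 only 1 was higher, and with the GC trend removed 2 were higher and 1 lower. Those higher were NUDT8 (0.63), a coenzyme A hydrolase of mitochondria, the mitochondrial coenzyme A carrier SLC25A42 (0.42) and the kinase PANK2 (0.20). Of 12 listed esterases and lipases, the kind of enzyme that can split glyceryl esters such as GTA, 7 were tested. CES3 (0.61) and PNPLA2 (0.36) were higher and NCEH1 (-0.28) was lower. Without calcipotriol, NUDT8 and CES3 were not called on their own (adjusted p = 0.12 and 0.268), and with it they were (adjusted p = 0.0134 and 0.0144), while the difference between the states was not called. With calcipotriol NUDT8 was no longer called without CPT replicate 1, CPT+GTA+5-Aza replicate 1 or CPT+GTA+5-Aza replicate 3 (adjusted p up to 0.0845), nor CES3 without CPT replicate 1 or CPT+GTA+5-Aza replicate 1 (adjusted p up to 0.207). CES3 was at 10.9 CPM in CPT+GTA+5-Aza replicate 1 and at 6.02 and 6 CPM in the other libraries of that group. The list of sirtuins that includes known deacetylases of acetyl-CoA synthetases had SIRT6 (0.37) and SIRT2 (0.19) higher and SIRT1 (-0.29) lower, and SIRT3 did not pass. With the GC trend removed 0 of these 4 were higher and 2 lower, and without any 1 of Con replicates 1 and 3, CPT replicate 1, GTA+5-Aza replicates 1 and 3 and CPT+GTA+5-Aza replicate 3 only 1 was higher.

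Other acetyltransferases were lower by small amounts where they passed the test in edgeR. Of 22 tested, 0 were higher and 6 lower in edgeR, where 16.8% and 14% of all genes were higher and lower. The median log2 fold change was -0.12, and 9 of the 22 had P under 0.05 before adjustment. DESeq2 called 0 higher and 7 lower, scaling by library size alone gave 0 and 4, removal of the GC trend gave 1 and 5, and 10 were lower without CPT replicate 2. Those lower in edgeR were ATF2 (-0.26), NAT10 (-0.25), NCOA3 (-0.24), KAT6B (-0.22), KAT8 (-0.22) and GTF3C4 (-0.16). NAT10 is best known as an RNA acetyltransferase and ATF2 as a transcription factor, and GTF3C4 as a subunit of the RNA polymerase III machinery. Subunits of the MYST-family complexes had 1 gene higher and 10 lower of 27, with a median of -0.13. Among them were the scaffold proteins EPC1 (-0.34) and EPC2 (-0.41) and the reader ING3 (-0.46) of the NuA4 complex, and JADE2 (-0.28) and BRD1 (-0.28) of the KAT7 complexes. JADE1 (0.16) was higher, the only one of its list, and 0 were higher with no filter on low counts or without any 1 of Con replicates 1 and 2, CPT replicate 1, GTA+5-Aza replicates 1 and 2, and CPT+GTA+5-Aza replicates 1 and 3, and 2 without CPT replicate 3.

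SAGA and ATAC subunits, the partners of KAT2A and KAT2B, had 2 genes higher and 7 lower of 22, beside 16.8% and 14% of all genes, with a median of -0.04. These counts were 1 and 4 with the GC trend removed and 2 and 4 with scaling by library size alone. When 1 library was left out, 0 to 4 were higher and 5 to 7 lower, with 4 higher without CPT replicate 2, 0 higher without CPT replicate 3 or GTA+5-Aza replicate 3, and 1 higher without any 1 of the others except GTA+5-Aza replicate 2 and CPT+GTA+5-Aza replicate 3. The largest change was that of SUPT3H, a histone-fold subunit of SAGA, which fell from 8.56 ± 1.42 CPM in Con to 4.96 ± 0.487 in GTA+5-Aza and from 8.71 ± 1.76 in CPT to 4.35 ± 0.494 in CPT+GTA+5-Aza (SD, n = 3), a log2 fold change of -0.89 (adjusted p = 1.71e-05). TRRAP (-0.28), the large scaffold shared by SAGA and NuA4, and ZZZ3 (-0.30) of ATAC were also lower, and TADA3 (0.20) and TAF10 (0.15) were higher. Cofactors of EP300 and CREBBP had 3 genes higher and 3 lower of 12. CITED4, a coactivator that binds both proteins directly, rose from 7.3 ± 0.447 CPM in Con to 13.9 ± 2.98 in GTA+5-Aza and from 7.31 ± 0.71 in CPT to 14.2 ± 2.98 in CPT+GTA+5-Aza, a log2 fold change of 0.94 (adjusted p = 1.83e-06). Its relative CITED2 was lower (-0.31). Of 21 readers of acetylated histones 3 were higher, among them CECR2 (0.62) and BRD3 (0.34). Another 8 were lower, among them SMARCA4 (-0.29), PBRM1 (-0.32) and TRIM24 (-0.30). CECR2 had 94 to 184 reads per library, and its primed and unprimed libraries overlapped, as did those of BRD3. In neither state of calcipotriol alone did CECR2 pass both an adjusted p under 0.05 and a 1.5-fold change. With the GC trend removed, the list medians were -0.09 for the other acetyltransferases, -0.08 for the MYST complexes, -0.00 for SAGA and ATAC, and -0.04 for the readers, beside 0.02 for all genes. With scaling by library size alone they were -0.08, -0.09, 0.00 and -0.07, beside 0.05 for all genes, and the genes of acetyl-CoA supply and use were then 7 higher and 5 lower.

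**Figure D4:**
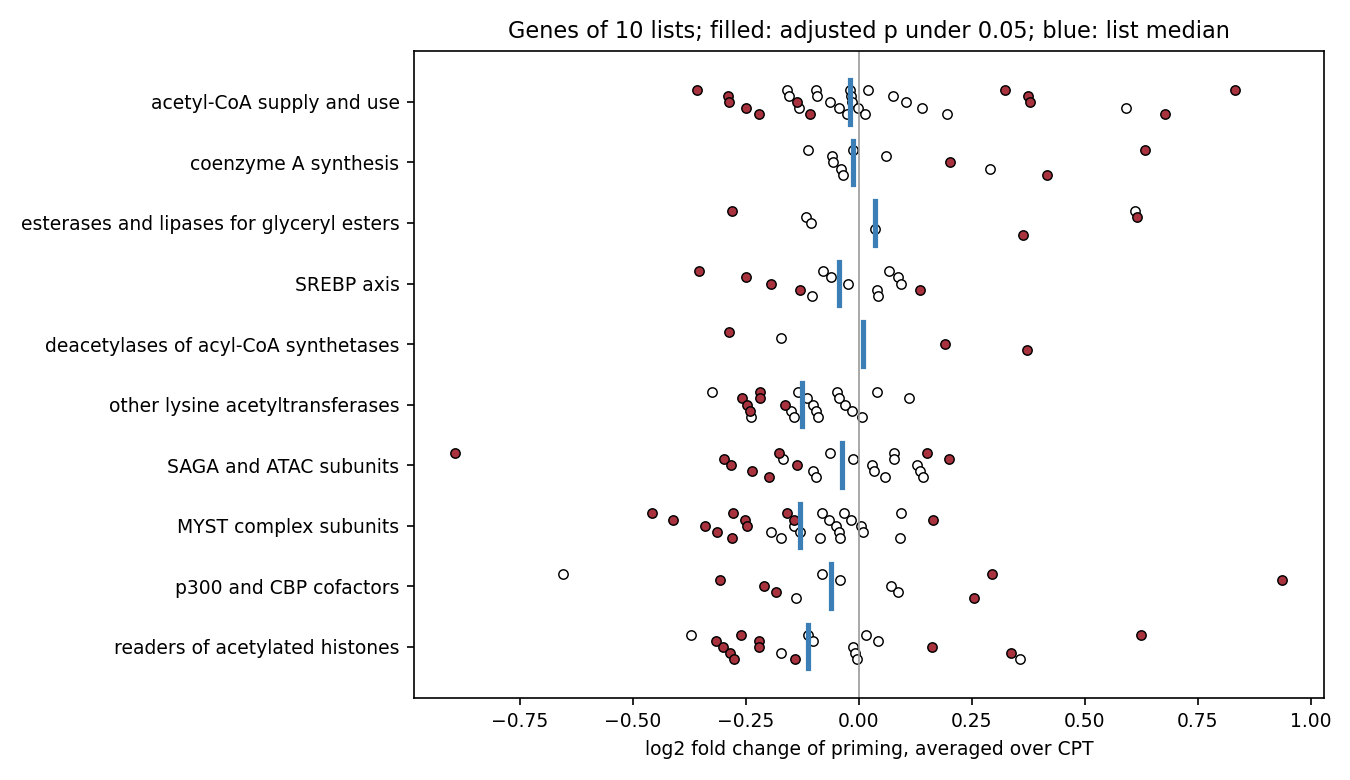
Log2 fold change of priming, averaged over calcipotriol, for the tested genes of 10 lists, 1 point per gene, with the list median in blue. Filled points have an adjusted p under 0.05. The medians of the MYST complex subunits (-0.13), the other lysine acetyltransferases (-0.12) and the readers of acetylated histones (-0.11) lie furthest left of 0. Those of the remaining lists lie between -0.06 and 0.04. SUPT3H (-0.89) and CITED4 (0.94) stand at the ends.

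ACSS2 had the smallest p of the members in the averaged comparison, and the genes with the profile nearest to it over the 12 libraries were PKDCC, BCOR and MLXIPL. The distance between scaled profiles was 0.817, 0.838 and 0.898, where the median over all tested genes was 4.66. MLXIPL (ChREBP), a transcription factor that responds to carbohydrate, was at 14.3 ± 1.76 CPM in Con, 14.1 ± 2.55 in CPT, 26.3 ± 0.884 in GTA+5-Aza and 25.8 ± 0.925 in CPT+GTA+5-Aza (SD, n = 3). PKDCC, a secreted kinase, was higher by 0.98 on the log2 scale, and BCOR, a corepressor, by 0.22. Any gene with a similar step between unprimed and primed cells is near in this measure.

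The markers of the cell line were read in the same libraries. The keratins KRT8 and KRT18, of epithelial cells, were high, whereas EPCAM had at most 1 read and CDH1 at most 4 in any library. Summed markers were 2101 to 2653 CPM for the epithelial list, at most 0.625 for endothelial cells, at most 1.74 for leukocytes and 0 for acinar and islet cells. The fibroblast list, mainly COL1A2 and COL3A1, summed to 879 to 932 CPM in Con, 780 to 848 in CPT, 988 to 1069 in GTA+5-Aza and 917 to 942 in CPT+GTA+5-Aza, while DCN had at most 2 reads in any library and LUM and FAP had 0. The part of these differences in the members' values was not tested.

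**Figure D5:**
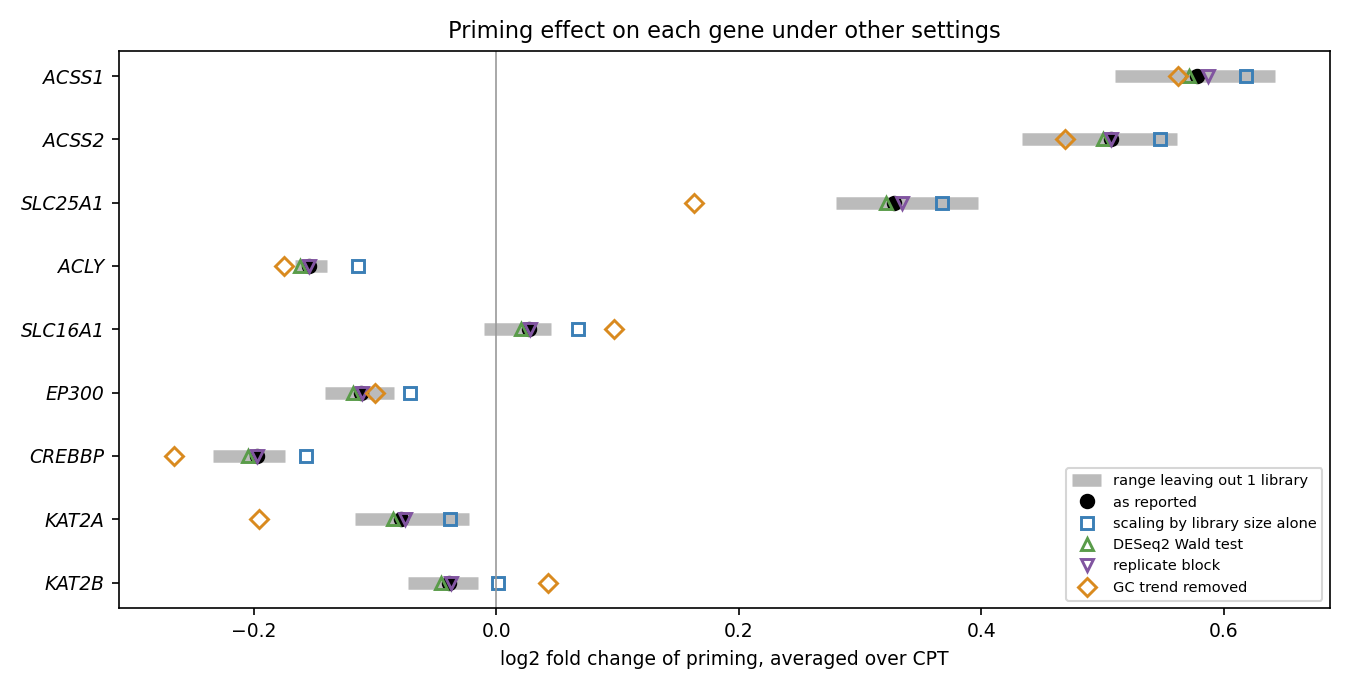
Log2 fold change of priming, averaged over calcipotriol, for each member as reported and under other settings, with the range over the 12 fits that each leave out 1 library in grey. ACSS1, ACSS2 and SLC25A1 stay above 0 and ACLY, EP300 and CREBBP below it under the settings drawn, KAT2A also stays below 0, SLC25A1 moves most when the GC trend is removed, and KAT2B and SLC16A1 cross 0.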

How the data were processed

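RNA-seq was performed on 12 MiaPaca2 samples, 3 in each of 4 groups, with groups and replicate numbers taken from the sample titles. The methods speak of independent samples for each experiment, and neither they nor the labels state whether replicates were separate cultures, so p-values measure the spread between these libraries. According to the labels and the methods, the authors used Trim Galore for trimming, HISAT2 2.2.1 for alignment to GRCh38 and HTSeq for counting. Each deposited table holds the raw, unscaled counts of 1 library. The annotation release and the strand setting are not given in the sources used here. GENCODE v44 holds 52181 of the 63677 identifiers and supplied symbols, coordinates on GRCh38, overlaps, exon lengths and GC content. The other identifiers may come from an older annotation, possibly of another build, so these may differ from what was counted.

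The counts were fitted with edgeR 4.0.16 under R 4.3.3 (filterByExpr, TMM, glmQLFit and glmQLFTest, 1 fit of all libraries), which tested 17123 genes. Calls had a Benjamini-Hochberg adjusted p under 0.05 over all tested genes, and the study's rule of fold change above 1.5 and unadjusted P under 0.05 is given beside them. The averaged comparison is the mean of both priming contrasts. The fit was tested on simulated data with the same spread for every gene and independent libraries. Spread that differs between genes and deviations shared between libraries were not simulated. No library repeated another of its group (chi-square per degree of freedom of 3.93 or more). Alternatives were other scalings, no filter on low counts, DESeq2 1.42.0, the likelihood ratio test, only the groups compared, the replicate block, fits without 1 library, and counts corrected for the GC trend of each library.

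The members and lists were chosen with earlier results of these data known. Named are all members, list genes with an adjusted p under 0.05 and a fold change above 1.5 in a priming comparison (PDP1, NUDT8, CES3, SUPT3H and CITED4), and the 3 genes nearest in profile to the member with the smallest p. The other list genes named were chosen after their values were seen. Of the listed genes, ACACA, TADA2A and TAF9 could not be matched through their GENCODE v44 identifiers and were not analysed here. Some genes of the lists are counted but not reported here by name.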

Additional observations from a re-analysis of the deposited data

How the results depend on the processing

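In the averaged comparison of priming, ACSS1, ACSS2, SLC25A1, ACLY and CREBBP kept their direction and their call in all 19 other fits, so 5 or 6 members were called when 1 library was left out. Over all genes, 4575 to 6076 were called in the fits without 1 library, beside 5283 in the reported fit. EP300 was also called in 2 of the 19, and KAT2A and SLC16A1 in 1 each, the fit with the GC trend removed. Within 1 state of calcipotriol the calls rested on fewer libraries. Without calcipotriol 1 to 5 members were called when 1 library was left out, with 1 called without Con replicate 3 or without GTA+5-Aza replicate 1, and 2 without Con replicate 1 or GTA+5-Aza replicate 3. Calls over all genes fell too in these fits, from 2993 of 17123. In that order they were 1983 of 17704, 2056 of 17683, 2046 of 17689 and 1907 of 17735. With calcipotriol 2 to 5 were called, with 2 called without CPT replicate 1, CPT+GTA+5-Aza replicate 1 or CPT+GTA+5-Aza replicate 3. Over all genes these fits called 2012 of 17740, 2174 of 17713 and 1985 of 17705, beside 2904 of 17123 in the reported fit. With calcipotriol 3 were called with scaling by library size alone, and 3 when the fit held the 2 compared groups alone, where fewer libraries inform the spread. Over all genes these fits called 2877 of 17123 and 2331 of 16138. The thresholds of the study were met by 1 to 2 members without calcipotriol and by 0 to 2 with it when 1 library was left out. In the averaged comparison they were met by 0 to 1 when 1 library was left out, by 1 with scaling by library size alone and by 1 with the replicate block. The share of all genes that met these thresholds in these fits was not counted.

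Same-numbered libraries of different groups did not as a rule deviate together (correlations of -0.52 to 0.56, median 0.02), so the numbers were taken as names only. Differently numbered ones gave -0.52 to 0.49 (median -0.008). Single pairs of both kinds were far from 0, as CPT replicate 2 with Con replicate 2 (0.56), GTA+5-Aza replicate 3 (0.49) and GTA+5-Aza replicate 2 (-0.52). A deviation shared across numbers is not removed by the replicate block. The replicate block left 5 members called in the averaged comparison. It cost ACLY its call without calcipotriol (adjusted p = 0.0566 in edgeR) and CREBBP its call with it (adjusted p = 0.0594 in edgeR).

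Signs changed only for members that were not called. The log2 fold change of SLC16A1 without calcipotriol was 0.031 with scaling by library size alone and 0.063 with the GC trend removed, and -0.039 to 0.027 when 1 library was left out. With calcipotriol it was then -0.0074 to 0.10, and averaged -0.010 to 0.046. KAT2B averaged was 0.0014 with scaling by library size alone and 0.043 with the GC trend removed. KAT2A with calcipotriol was -0.13 to 0.054 when 1 library was left out. The cause was not tested. Scaling by library size alone moved the median of all genes to 0.05. ACSS1, with 201 to 459 reads per library, and KAT2B, with 275 to 366, are the tested members that depth limits most. The fit of only the compared groups was not run for the averaged comparison and the interaction, which need all 4 groups.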
